A study of Homo sapiens with 5 samples.

Results

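The sites described here are the chromatin immunoprecipitation (ChIP-seq) peaks of PRDM11 antibody 1 and of RNA polymerase II that were called against both available controls. A peak of the list called against IgG was kept when 1 bp or more of it lay in an input-called peak of the same library; such peaks are called control-robust below. This kept 10972 of 13499 antibody 1 peaks (81.3%) and 44842 of 50161 RNA polymerase II peaks (89.4%), out of 1150695 peaks in the 6 lists of the series. All libraries came from untreated U2932 cells, an established human lymphoma line. Chromatin was cross-linked, sonicated and precipitated with a non-commercial rabbit polyclonal antibody to PRDM11 (antibody 1 or antibody 2), with an antibody to RNA polymerase II or with rabbit IgG, and a further library, the input, was made without antibody. Each of the 5 libraries is the only one of its kind, from 1 cell line, so replicate error cannot be given and no p-value was computed. Intervals in parentheses are exact (Clopper-Pearson) 95% binomial intervals over peaks. They count each peak as independent and reflect counting error alone. No library of cells without PRDM11 is among the 5. Both peak lists were called against the same IgG and input libraries, so part of their coincidence may come from the controls. Positions are those of build hg19, counted from 1.

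PRDM11 belongs to the PR domain family, several of whose members are known as regulators of transcription. RNA polymerase II transcribes protein-coding genes and many noncoding RNAs. In many cell types it is known to accumulate near start sites, where it pauses, and to give broad signal over some highly transcribed genes. A peak that coincides with it lies in chromatin where the enzyme was precipitated, which need not be a promoter. The peaks could not be assigned to genes, because the gene annotation at hand is of another build.

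The control-robust antibody 1 peaks were narrow. Their median width was 213 bp (quartiles 147 bp and 348 bp), the widest was 2136 bp, and together they covered 3.20 Mb. Peaks of the smallest width, 123 bp, made up 12.7% of them (1396 peaks). RNA polymerase II peaks were wider, with a median of 266 bp, quartiles of 180 bp and 450 bp, a maximum of 13809 bp and a total of 17.0 Mb. The 2527 antibody 1 peaks that the rule left out had a median width equal to the 123 bp minimum, and none was wider than 478 bp. Thus every antibody 1 peak of 500 bp or wider in the IgG list was control-robust. At the limit of the rule, 16 antibody 1 members shared fewer than 50 bp with an input-list peak (the smallest shared stretch was 8 bp), and 70 peaks left out lay within 100 bp of one (the smallest gap was 32 bp). For RNA polymerase II, 102 members shared fewer than 50 bp and 393 peaks left out lay within 100 bp.

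The paired lists also show how far an edge moved when the control was changed. Both lists of a pair come from the same ChIP library, so the error of placement between libraries is unknown. Between the IgG and the input call of the same antibody 1 peak, the start moved by a median of 17 bp and the end by 17 bp. The midpoint moved by a median of 16 bp, and by more than 124.5 bp in the 10% of peaks that moved most. For RNA polymerase II the midpoint moved by a median of 19.5 bp. Peaks were wider against input in 72.2% of antibody 1 and 72.3% of RNA polymerase II members, so edges against input lay further out on the whole.

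Antibody 1 coincided with RNA polymerase II at most of its control-robust sites. Of the 10972 peaks, 6747 shared at least 1 bp with a control-robust RNA polymerase II peak, a share of 61.5% (60.6% to 62.4%). Among all 13499 peaks of the antibody 1 IgG list the share was 54.1%. When the antibody 1 peaks were moved by 50 kb, 3.20% overlapped after a move to the left and 3.17% after a move to the right, so the observed share was 19.3 times the mean of the moves. A move keeps every width and the spacing of the peaks, and it keeps density only on a broad scale, so it is a level for coincidence by chance and not a test. With a move of 10 kb the ratio was 14.0, and with one of 100 kb it was 23.9.

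Control-robust peaks coincided more often than the peaks the rule left out, also at the same width. Of the 2527 antibody 1 peaks found against IgG alone, 22.2% (20.6% to 23.9%) overlapped a control-robust RNA polymerase II peak. Among 123 bp peaks the share was 25.5% (23.2% to 27.9%) of 1396 robust and 14.8% (13.0% to 16.8%) of 1357 other peaks. Among peaks of 124 to 199 bp it was 52.3% (50.6% to 53.9%) of 3642 robust and 28.7% (26.0% to 31.6%) of 1024 others. The intervals did not overlap in either width class. On the side of RNA polymerase II, 2.03% of its 5319 peaks left out by the rule held a control-robust antibody 1 peak, against 14.5% of the control-robust ones. This comparison was not matched for width. The polymerase peaks left out had a median of 150 bp, against 266 bp for the control-robust ones. Of the control-robust ones, 3.53% at 129 bp and 4.73% at 130 to 199 bp held an antibody 1 peak.

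The share in RNA polymerase II rose with every step in antibody 1 width. It was 25.5% at 123 bp, 52.3% at 124 to 199 bp and 69.2% (67.3% to 71.0%) of 2519 peaks at 200 to 299 bp. It reached 77.0% (75.1% to 78.8%) of 1974 peaks at 300 to 499 bp, 84.0% (81.8% to 86.0%) of 1249 peaks at 500 to 999 bp and 92.2% (87.4% to 95.6%) of 192 peaks at 1000 bp or more. A wider peak touches more by its size alone, and the moved peaks show how far: their share rose from 1.72% at 123 bp to 3.96% at 500 to 999 bp and 8.33% at 1000 bp or more. Observed over moved was highest at 200 to 299 bp, 23.7-fold, and lowest in the widest class, 11.1-fold. The rise with width was thus present in the shares at each step, but not in their ratio to the move. A share cannot exceed the whole class, so a higher moved share puts a lower cap on the ratio. The widest class, with 92.2% in, stood close to its cap, so its low ratio does not show weaker coincidence.

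**Figure D1:**
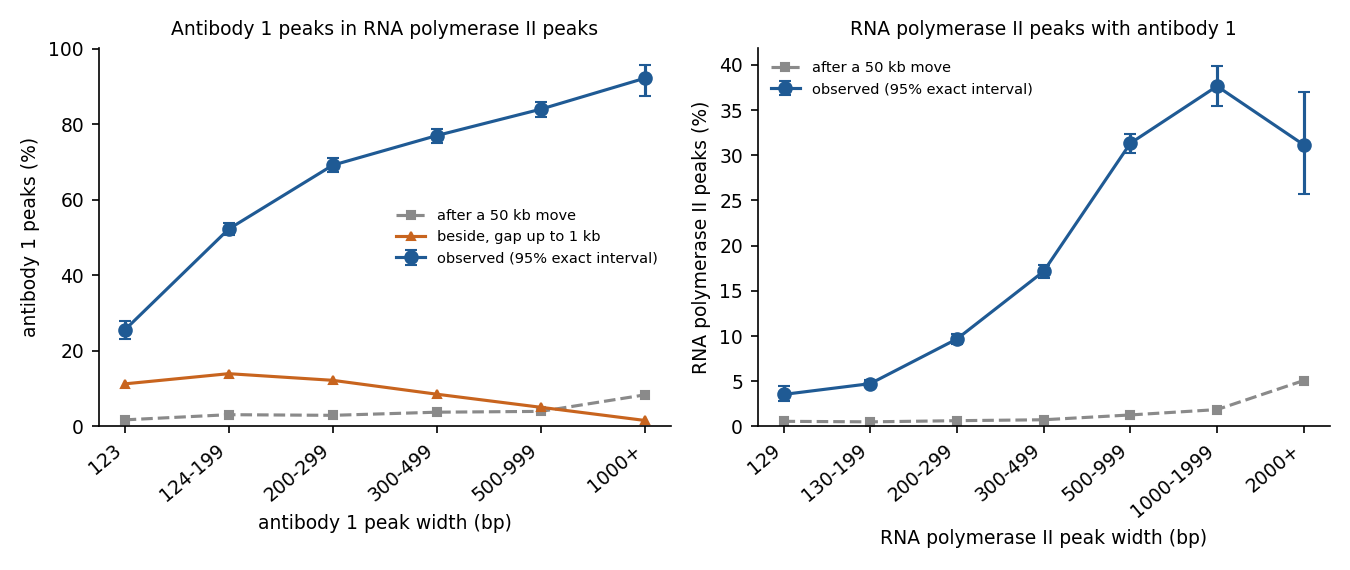
Left: share (%) of control-robust antibody 1 peaks in RNA polymerase II peaks by antibody 1 width (bp), with the share beside them (gap of up to 1 kb) and the share in them after a 50 kb move. Right: share (%) of control-robust RNA polymerase II peaks that hold an antibody 1 peak, by their own width. Bars are exact 95% intervals; the left curve climbs from 25.5% to 92.2%, and the right one peaks at 37.7% for 1000 to 1999 bp.

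Seen from RNA polymerase II, 6510 of 44842 control-robust peaks held an antibody 1 peak, or 14.5% (14.2% to 14.8%). The share was 0.793% after the move, and it was 13.2% among all 50161 peaks of the IgG list. At the minimum width of 129 bp, 3.53% (2.78% to 4.42%) of 2067 peaks held one, and at 300 to 499 bp 17.2% (16.4% to 17.9%) of 9946 did. At 500 to 999 bp the share was 31.3% (30.3% to 32.4%) and at 1000 to 1999 bp 37.7% (35.4% to 39.9%). The 276 peaks of 2000 bp or more stood at 31.2% (25.7% to 37.0%), an interval that overlapped that of the class before. Counted per kb of RNA polymerase II peak, antibody 1 peaks were densest at 500 to 999 bp, with 0.520 per kb, and thinnest in the widest class, with 0.177 per kb. After the move these classes had 0.0206 and 0.0179 per kb. The widest domains therefore held few antibody 1 peaks for their length, though still 9.87 times the moved level. By that ratio they were not the lowest class: it was 6.35 at 129 bp and 9.40 at 130 to 199 bp. It was higher in each class from 200 to 1999 bp, up to 25.2 at 500 to 999 bp.

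The median width of the RNA polymerase II peak that an antibody 1 peak met rose at each step in antibody 1 width, but over a modest range. The median partner was 458.5 bp wide for antibody 1 peaks of 123 bp, 517 bp for those of 200 to 299 bp and 646 bp for those of 1000 bp or more. In every antibody 1 width class, partners of 500 to 999 bp were the most frequent: they took 7.45% of all 123 bp peaks and 36.1% of all peaks of 500 to 999 bp. After the move such partners also led at 123 bp (0.466%), 124 to 199 bp, 200 to 299 bp and 1000 bp or more. At 300 to 499 bp and 500 to 999 bp, narrower partners led after the move. The medians compare with 266 bp for all control-robust RNA polymerase II peaks and 410 bp for the peaks met after the move.

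**Figure D2:**
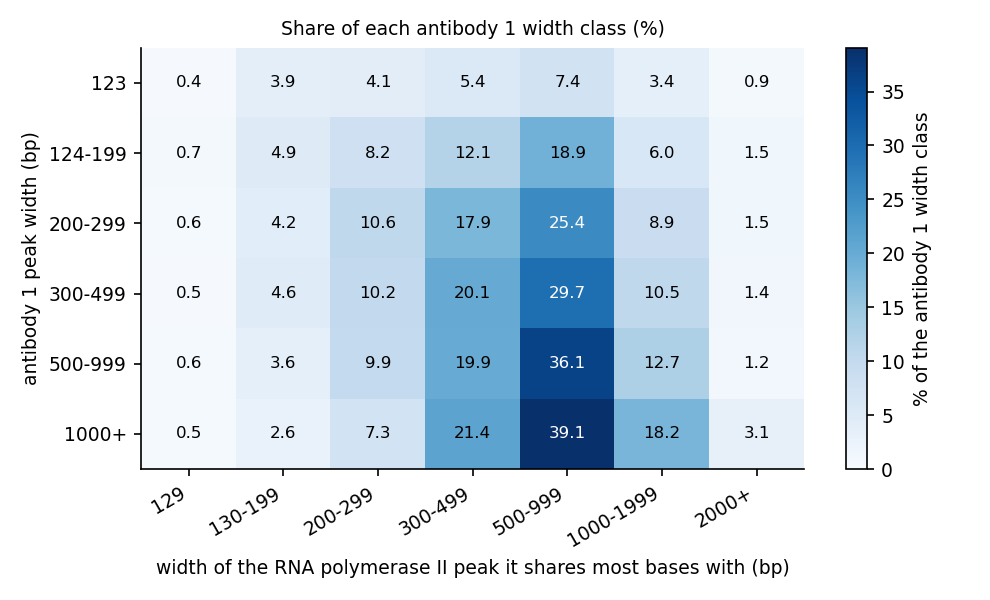
Share (%) of each antibody 1 width class (rows, bp) that shared most bases with an RNA polymerase II peak of the given width (columns, bp). The darkest cell of each row is at 500 to 999 bp, with 7.45% in the top row and 36.1% in the row of 500 to 999 bp.

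Coincidence differed little between chromosomes. Over the 23 chromosomes with members the share in RNA polymerase II ranged from 53.6% to 68.2%, with a median of 60.8%. Chromosome 13 was lowest, at 53.6% (47.7% to 59.4%) of 295 peaks, and chromosome X was highest, at 68.2% (61.6% to 74.2%) of 223 peaks. The intervals of 20 chromosomes held the overall share of 61.5%. The exceptions were chromosome 13 below it, and chromosome X and chromosome 3 (65.1%, 61.5% to 68.6%, of 723 peaks) above it, the latter 2 by a margin of less than 1 point at the lower bound. Had each width class coincided at its overall rate, the chromosomes would have spanned 59.7% to 63.1%, a narrower range. The only antibody 1 peak on chromosome Y in the IgG list was not control-robust.

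What did vary was the level after the move and the share of peaks far from RNA polymerase II. The moved share ran from 0.678% on chromosome 13 to 7.10% on chromosome 16, and it was 6.97% on chromosome 19. The share of antibody 1 peaks over 50 kb from RNA polymerase II ran from 3.91% (2.61% to 5.59%) on chromosome 19, known for its many genes, to 24.4% (19.6% to 29.7%) on chromosome 13, known for few. Chromosomes 4, 18 and 8 followed with 23.4%, 21.8% and 21.1%. Moved peaks showed the same order at the ends, with 5.16% on chromosome 19 and 27.6% on chromosome 13. The move is as long as the 50 kb limit, so peaks that had overlapped could not become far. These moved far shares are therefore not a level by chance. The share of RNA polymerase II peaks that held antibody 1 was highest on chromosome 4, at 20.2% (18.2% to 22.3%), and chromosome X, at 19.1% (16.5% to 22.1%). It was lowest on chromosome 16, at 10.5% (9.33% to 11.7%), which also had the most RNA polymerase II peaks per antibody 1 peak, 5.71. Chromosome 4 had the fewest, 2.71.

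**Figure D3:**
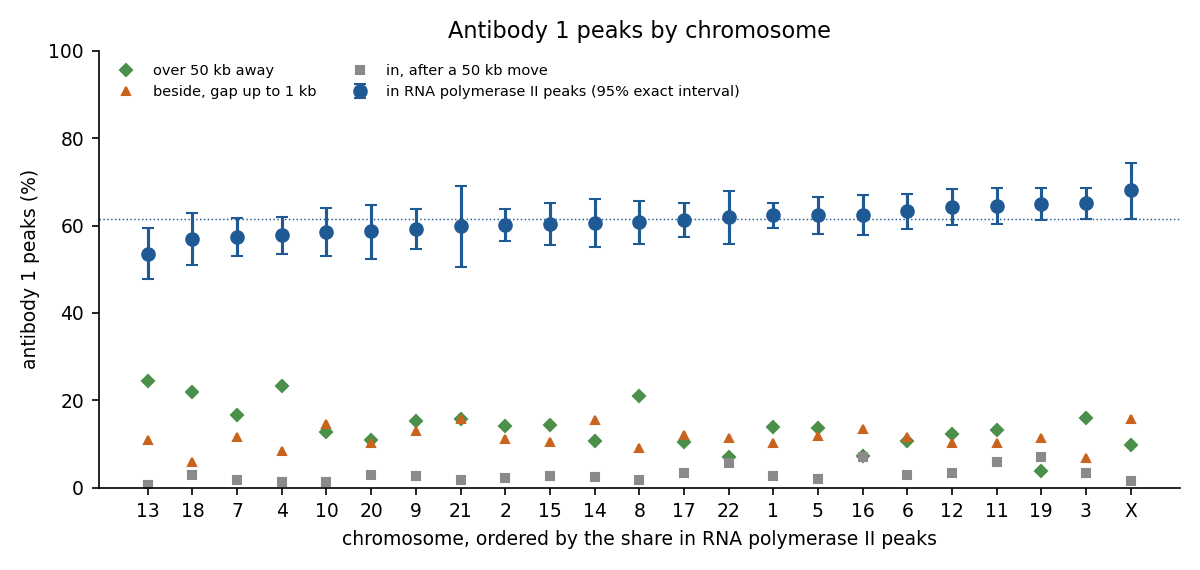
Control-robust antibody 1 peaks (%) per chromosome: in RNA polymerase II peaks (circles, exact 95% intervals), beside them, over 50 kb away, and in them after a 50 kb move. The dotted line is the overall 61.5%; circles range from 53.6% on chromosome 13 to 68.2% on chromosome X, and the far share from 3.91% to 24.4%.

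Coincidence was also more frequent where other RNA polymerase II peaks lay close by. Other peaks are the control-robust polymerase peaks within 50 kb that the antibody 1 peak did not itself overlap. Of the 2338 antibody 1 peaks with no other, 35.8% (33.8% to 37.7%) overlapped a polymerase peak. By this definition the rest are the 1502 peaks over 50 kb from the polymerase. A peak without overlap but within 50 kb always falls in a later group, so the shares partly follow from the definition. The share was 63.6% (61.2% to 65.9%) with 1 other, 63.8% (62.0% to 65.6%) with 2 to 4, 74.8% (72.5% to 77.0%) with 10 to 19 and 79.9% (77.2% to 82.4%) with 20 or more. Peaks with no other were narrower, with a median of 180 bp, and the medians of the remaining groups ran from 210 bp to 229 bp. For moved peaks, counted around the moved site, the share rose more steeply. It ran from 0.0863% with no other to 6.27% with 10 to 19 and 20% with 20 or more. The same definition applies there, and moved peaks that had overlapped keep their former partner within 50 kb.

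Where the peaks met, antibody 1 lay wholly within the RNA polymerase II peak about as often as not, and more often than after the moves. Of the 6747 overlapping antibody 1 peaks, 3451 lay wholly inside, 51.1% (49.9% to 52.3%), against 29.6% of the 699 overlaps found after the moves. Among peaks at least 200 bp wide in both lists the share was 44.9%. These inside peaks had a median width of 212 bp, in RNA polymerase II peaks of 690 bp. A further 39.1% reached past 1 edge, by a median of 78 bp, against 57.4% after the moves. The left edge was crossed by 1298 and the right by 1338. The remaining 660 antibody 1 peaks (9.78%, against 13.0% after the moves) held the whole RNA polymerase II peak, with median widths of 563.5 bp for antibody 1 and 269.5 bp for the polymerase. More than 1 RNA polymerase II peak was touched by 390 antibody 1 peaks (5.78%), and at most 3 were.

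The midpoints of overlapping peaks lay a median of 107 bp apart (quartiles 44.5 bp and 210.5 bp), several times the 16 bp and 19.5 bp by which midpoints moved between controls. Those shifts reflect the change of control alone, so how much of the distance is error of placement is not known. After the 50 kb move the median was 159 bp. Midpoints were within 100 bp of each other in 47.8% of pairs, against 31.2% after the move. At a given partner width the observed distance was the shorter in every class: 55.5 bp against 123.5 bp for partners of 200 to 299 bp, 136.5 bp against 231.75 bp for 500 to 999 bp, and 281 bp against 397.75 bp for 1000 to 1999 bp. In the widest class, 2000 bp or more, it was 773.5 bp over 152 pairs against 910 bp over 31. The start edges of overlapping peaks lay a median of 135 bp apart and the end edges 134 bp, while the closer pair of edges lay 65 bp apart. The antibody 1 midpoint was to the left of the partner's in 3352 pairs and to the right in 3381, so no side was preferred along the chromosome. The strand of transcription was not known for these peaks, so upstream and downstream could not be told apart.

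Within polymerase peaks at least 500 bp wide, antibody 1 midpoints thinned out towards both edges. Of 3421 midpoints, 62.8% (61.2% to 64.5%) lay in its central 50%, against 52.3% of 237 after the moves. The leftmost 20% of the length held 12.6% of midpoints, the middle 20% held 26.4% and the rightmost 20% held 13.5%. The central share was 68.3% (66.3% to 70.2%) in polymerase peaks of 200 to 499 bp, 65.4% (63.5% to 67.3%) at 500 to 999 bp and 58.9% (55.5% to 62.2%) at 1000 to 1999 bp. It was 44.7% (36.7% to 53.0%) of 152 midpoints at 2000 bp or more, where even placement lies within the interval and the middle 20% held 14.5%. Where a polymerase peak held just 1 antibody 1 midpoint, the central share was 68.3%.

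**Figure D4:**
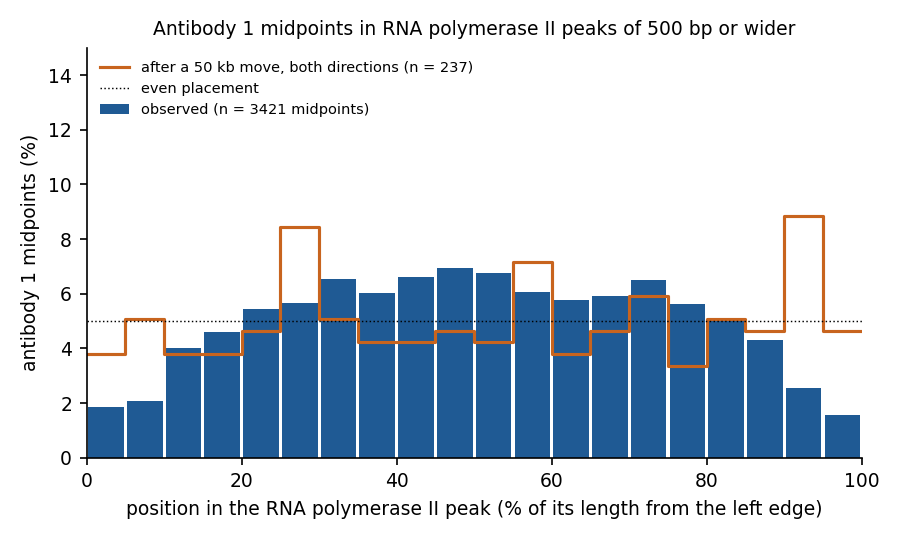
Position of antibody 1 midpoints along control-robust polymerase peaks at least 500 bp wide (x axis, % of the length from the left edge; y axis, % of midpoints). Bars are the 3421 observed midpoints, the line is the 237 midpoints after the 50 kb moves, and the dotted line is even placement; the central 50% holds 62.8% of the observed midpoints.

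Few RNA polymerase II peaks held more than 1 antibody 1 peak: 576 of the 6510 with any, or 8.85% (8.17% to 9.56%). After a move 22 did on average, but then only 0.793% of all polymerase peaks held any, against 14.5% as observed. The counts 576 and 22 thus rest on unlike numbers of polymerase peaks with any. They do not show an excess of several antibody 1 peaks among those. Peaks with 2 or more had a median width of 901 bp, those with 1 of 448 bp and those with none of 246 bp. The highest number, 6, occurred at 2 peaks. The peak on chromosome 13 at 50698769 to 50701799 (3031 bp) held 6 antibody 1 peaks of 223 to 639 bp, which overlapped 2454 bp of it, and 6 antibody 2 peaks. The peak on chromosome 19 at 46271941 to 46274962 (3022 bp) held 6 antibody 1 peaks of 123 to 543 bp, all in the part up to 46274292. A peak of 4717 bp on chromosome 21 (43252384 to 43257100) held 5 narrow ones of 143 to 238 bp. Of the polymerase peaks that held no control-robust antibody 1 peak, the widest were those on chromosome 14 (106317108 to 106330916, 13809 bp), chromosome 17 (74265116 to 74275174, 10059 bp) and chromosome 11 (65189993 to 65199272, 9280 bp). The nearest antibody 1 peak lay 7045 bp, 103598 bp and 18779 bp away. Control-robust antibody 2 peaks numbered 7, 7 and 0 in them. The antibody 2 list is dense, with 433934 such peaks, and no level after a move was taken for these counts.

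The widest antibody 1 peaks wholly inside polymerase peaks were not centred in them alike. On chromosome 7, a peak of 1151 bp (20369954 to 20371104) lay in a polymerase peak of 2627 bp with midpoints 56 bp apart. On chromosome 1, a peak of 1269 bp (150336035 to 150337303) filled most of a polymerase peak of 1630 bp, with 55 bp left over on its left and 306 bp on its right. On the same chromosome a peak of 1219 bp (192777765 to 192778983) lay near the left end of a domain of 5993 bp, 480 bp from that edge and 4294 bp from the other. The widest of all inside peaks, on chromosome 19 (59073685 to 59074982, 1298 bp), lay in a peak of 2959 bp with midpoints 294.5 bp apart. That on chromosome 4 (140477348 to 140478620, 1273 bp) lay 113 bp from the right edge of a peak of 2345 bp.

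The reverse arrangement, a wide antibody 1 peak that holds a polymerase peak, included the widest antibody 1 peak of the list. This peak on chromosome 18 (61033139 to 61035274, 2136 bp) touched 3 polymerase peaks, of which the main one (61034105 to 61034998) left 966 bp of antibody 1 signal on its left and 276 bp on its right. The peak on chromosome 11 at 10878831 to 10880843 (2013 bp) touched 2 polymerase peaks, which covered 1346 bp of it. It began 42 bp before the main one, of 1093 bp, and ended 878 bp after the end of that one. On chromosome 6, the peak at 86302579 to 86304445 (1867 bp) touched 2 polymerase peaks and held the main one, of 1422 bp, with midpoints 107.5 bp apart. The peak on chromosome 13 at 92050670 to 92052535 (1866 bp) held a polymerase peak of only 266 bp near its left end. That on chromosome 11 at 118270942 to 118272780 (1839 bp) touched 2 polymerase peaks, which covered 841 bp of it. The main one, of 426 bp, lay near its right end. The regions on chromosomes 18 and 13, and that on chromosome 1 at 150336035, lay in 1-Mb bins where antibody 1 peaks against input were very dense, so that being found against input says little there.

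Antibody 1 peaks that missed RNA polymerase II often lay just outside it. Of the 4225 peaks without overlap, 1206 had a control-robust polymerase peak within a gap of 1 kb. They were 11.0% (10.4% to 11.6%) of all members, against 4.92% after the 50 kb move, a 2.23-fold difference. The share was 10.9% among all 13499 peaks of the IgG list. Counted over all members, the excess was confined to short gaps among the classes measured. Far more peaks were left without overlap after the move, since 3.19% of members overlapped then, against 61.5% as observed. The counts below therefore do not compare gaps among peaks without overlap alone. Gaps of 0 to 100 bp held 264 peaks against 68.5 after the move, gaps of 101 to 200 bp 270 against 58.5, and gaps of 201 to 300 bp 190 against 67.5. At 401 to 500 bp the counts were 107 and 52.5, and at 501 to 1000 bp 248 and 242. Beyond that, fewer peaks were observed than after the move, with 159 against 401 at 1001 to 2000 bp. Gaps of up to 500 bp held 79.4% of the 1206 peaks beside the polymerase, and the median gap was 232.5 bp against 442 bp after the move.

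**Figure D5:**
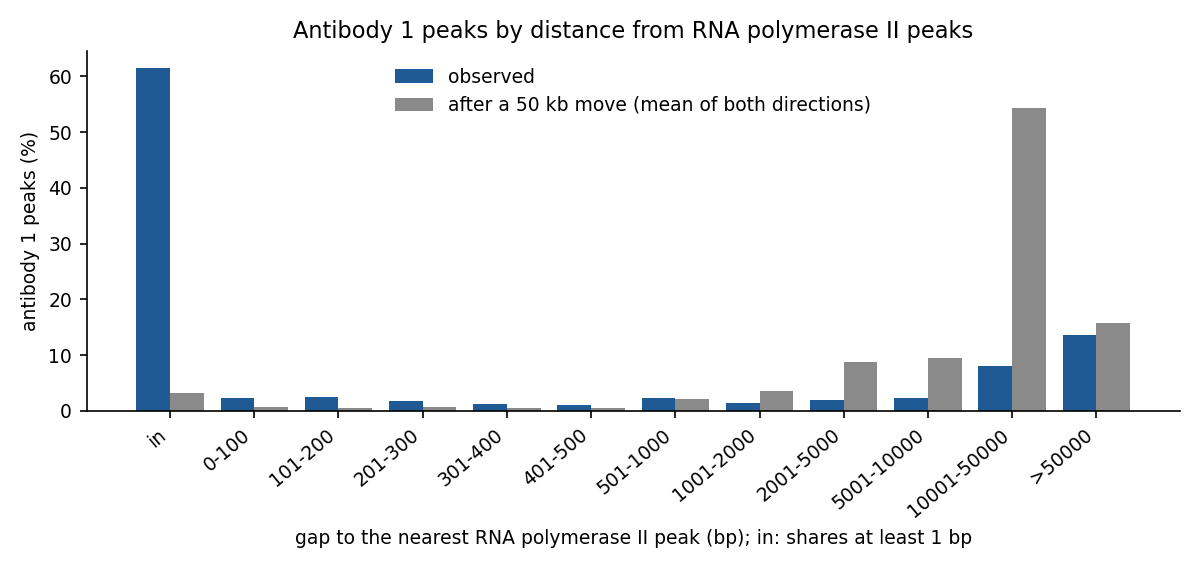
Control-robust antibody 1 peaks (y axis, %) by the gap to the nearest control-robust RNA polymerase II peak (x axis, bp), as observed and after a 50 kb move (mean of both directions). Observed bars exceed the moved ones for overlap (61.5% against 3.19%) and for gaps up to 500 bp, and fall below them from 1001 bp on. Peaks that had overlapped stay within 50 kb of their former partner after the move. The moved bars at 10001 to 50000 bp and beyond are therefore not a level by chance.

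These neighbouring peaks were narrower than the overlapping ones and lay by narrower polymerase peaks. Their median width was 185 bp (quartiles 141 bp and 269 bp), against 254 bp (174 bp and 416 bp) for peaks in RNA polymerase II. The nearest polymerase peak had a median width of 285 bp, against 526 bp for overlapped ones, and the level after the move was 250.5 bp. This held at each antibody 1 width: for antibody 1 peaks of 200 to 299 bp the medians were 286 bp beside and 517 bp in, and for those of 500 to 999 bp 282 bp and 583 bp. Among the antibody 1 peaks that missed the polymerase, the share lying beside it was lowest at 123 bp, 15.1% (13.0% to 17.4%) of 1040. It was 29.2% (27.1% to 31.4%) at 124 to 199 bp, 39.5% (36.1% to 43.0%) at 200 to 299 bp, 37.0% (32.6% to 41.6%) at 300 to 499 bp and 31.5% (25.1% to 38.4%) of 200 at 500 to 999 bp. The moved level was between 4.59% and 5.36% in these 5 classes. The polymerase peak was on the left in 575 cases and on the right in 631. In 145 cases (12.0%) polymerase peaks lay within 1 kb on both sides, a median of 799 bp apart, against 13.0% of the peaks that lay beside after the move.

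Polymerase peaks with an antibody 1 peak beside them often held another one. The nearest polymerase peak overlapped a different antibody 1 peak in 627 of the 1206 cases, 52.0% (49.1% to 54.8%), against 13.3% after the move. Accordingly, the next antibody 1 peak lay a median of 336.5 bp from a peak beside the polymerase, and 8821 bp from a peak in it. Another antibody 1 peak lay within 1 kb of 64.8% of the peaks beside and of 41.1% of the peaks in the polymerase. Both figures were lower for peaks at gaps of over 1 kb to 50 kb (23.7%) and over 50 kb (18.0%).

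Part of the peaks beside the polymerase touched signal that the robust list leaves out. Of the 1206, 347 (28.8%, 26.2% to 31.4%) overlapped an RNA polymerase II peak of either control list that was not counted, 303 of them in the input list. When the input-list coordinates of the same antibody 1 peaks and of the polymerase were used, 269 (22.3%) became overlapping and 935 stayed beside. The overlapping class was steadier, with 6708 of 6747 (99.4%) still overlapping, and 1501 of the 1502 peaks over 50 kb away remained so. Of the class limits, the line between beside and in was therefore the one most open to such changes of coordinates. Small shifts of edges could hardly carry a peak across 50 kb, so the steadiness of the far class was set beforehand. Which polymerase peaks are counted did matter there: with those of either control, 10.6% of members lay over 50 kb away, against 13.7%. An uncounted polymerase peak was overlapped by 155 peaks at gaps between 1 kb and 50 kb and by 90 far peaks.

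The widest peak beside the polymerase lay on chromosome 8 at 128749175 to 128751282 (2108 bp), 464 bp to the right of a polymerase peak of 481 bp (128748230 to 128748710) that held another antibody 1 peak. It touched no polymerase peak in either list, and the next polymerase peak on its right was 55500 bp away. A peak on chromosome X (46433586 to 46434744, 1159 bp) lay 322 bp from a polymerase peak of 173 bp, and 1 on chromosome 3 (185825494 to 185826585, 1092 bp) lay 140 bp from 1 of 224 bp. Both, like the peak on chromosome 5 (139029777 to 139030769, 993 bp, gap 272 bp), did overlap a polymerase peak outside the robust list. The peak on chromosome 16 (1875655 to 1876626, 972 bp) lay 149 bp from a polymerase peak of 531 bp and overlapped none in either list. Of these 5, that on chromosome 3 lay in a 1-Mb bin of very dense input-list peaks.

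At the other end, 1502 antibody 1 peaks (13.7%, 13.1% to 14.3%) lay over 50 kb from any control-robust polymerase peak. The share among all peaks of the IgG list was 17.5%. After the move 15.8% of members did, which is not a level for coincidence by chance. The move is as long as this limit, so no peak that had overlapped could become far. The 1502 far peaks were narrow, with a median of 147 bp, and 33.1% had the minimum width, against 5.28% of peaks in the polymerase. Only 64 reached 500 bp, but these included wide ones. The widest, on chromosome 12 (42876539 to 42878288, 1750 bp), lay 156312 bp from the nearest robust polymerase peak, although it touched a polymerase peak outside the robust list. Peaks on chromosome 8 (141108480 to 141110132, 1653 bp), chromosome 15 (48936670 to 48937966, 1297 bp), chromosome 6 (116782989 to 116784061, 1073 bp) and chromosome 12 (93964486 to 93965555, 1070 bp) touched none. Their gaps were 357298 bp, 164645 bp, 108004 bp and 102966 bp. Each of these 5 overlapped a control-robust antibody 2 peak, as did all 192 antibody 1 members of 1000 bp or wider. For the 177 members of that width in the polymerase, the share after the move was 19.5%. The remaining 1517 members (13.8%) lay at gaps between 1 kb and 50 kb, with a median width of 159 bp. After the move 76.1% of members did. Peaks that had overlapped stay within 50 kb of their former partner, so that share is not a level by chance either.

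Antibody 2, the other reagent raised against PRDM11, marked all 4 distance classes above its own moved level, and its share rose with antibody 1 width in each of them. It shares both controls with antibody 1. Its control-robust list held 433934 peaks, 77.1% of them at the 123 bp minimum. The moved level was also higher at 500 to 999 bp than at 123 bp in each class. For peaks in the polymerase it was 5.20% at 123 bp and 14.4% at 500 to 999 bp. A control-robust antibody 2 peak overlapped 60.0% (58.8% to 61.2%) of antibody 1 peaks in the polymerase, 53.3% (50.5% to 56.2%) beside it, 38.3% (35.8% to 40.8%) at gaps between 1 kb and 50 kb and 32.3% (29.9% to 34.7%) over 50 kb away. The shares after the move were 9.02%, 7.84%, 7.81% and 5.49%. The order of the classes changed with width. At 123 bp the shares were 32.0% (27.2% to 37.1%) in, 32.5% (25.2% to 40.4%) beside, 13.0% (9.77% to 16.7%) between and 11.5% (8.80% to 14.6%) far from the polymerase. At 124 to 199 bp they were 39.1% (36.9% to 41.4%), 42.7% (38.4% to 47.1%), 30.4% (26.9% to 34.2%) and 23.9% (20.5% to 27.5%) in the same order. At 200 to 299 bp all 4 lay between 52.5% and 59.3%, with overlapping intervals. At 300 to 499 bp the far peaks stood highest, at 82.4% (74.6% to 88.6%), and the peaks in the polymerase lowest, at 72.0% (69.7% to 74.3%), and these intervals did not overlap. At 500 to 999 bp the shares were 95.5%, 96.8%, 96.2% and 98.3%, with overlapping intervals, which does not show that they are equal.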

How the data were processed

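The files are peak lists, 1 per ChIP library and control (6 in all). Per the submitters' processing notes, Bowtie 0.12.7, SAMtools, MACS2 2.0.9 and build hg19 were used, with no order or settings; the control and the q threshold of 0.1 are in the names of the deposited lists. Each deposited list holds chromosome, start and end only, so no score, count or signal was available. Read depth is unknown, and no precision follows from it. Within each list, peaks are disjoint.

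Samples were grouped by antibody. A peak overlapped another when they shared 1 bp. The partner of a peak was the one with most shared bases, otherwise the nearest; a gap counts the bases between edges. Chance levels are the mean of moves by 50 kb to the left and right. For classes split at a gap of 50 kb the moved share is not such a level, because the move is as long as the limit. A 1-Mb bin was called dense when its input list had 50 or more antibody 1 peaks and 5 or more times the IgG-list number plus 1. The design planned gene assignment only with an annotation of the lists' build, so none was done. Regions were named by width, the widest in each arrangement. The members, classes and named regions were chosen with earlier results of these data known. Alternatives with lists of different controls were added after seeing the data.

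Python 3.11.15 was used with SciPy 1.17.1, NumPy 2.4.6, pandas 2.3.3 and, for figures, matplotlib 3.10.9. On simulated data, 3000 planted peaks were all placed in their class, and bedtools 2.31.1 gave the same 6747 overlapping and 1206 neighbouring peaks.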

Additional observations from a re-analysis of the deposited data

How the results depend on the processing

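Of 53 recomputed main values, 18 stayed within the exact interval of the reported value, or within 1.5 times for the number of peaks, and 35 moved beyond it. The lowest ratio of the overlap to the move was 6.87. Of 18 recomputed values on midpoint distance, inside placement and shared partners, 15 stayed within the interval or quartiles; the exceptions were 44.9% wholly inside and 43.4% with a shared partner at 200 bp or wider, and 48.7% with a shared partner on input-list coordinates. Both counts include a limit to chromosomes 1 to 22 and X, which changed nothing because no control-robust peak lay on chromosome Y. Midpoint distances were judged against wide quartiles, which a median is unlikely to leave. In all peaks of the IgG lists, 55.2% of antibody 1 peaks overlapped RNA polymerase II, 16.6 times the move. On input-list coordinates the overlap was 62.5% (17.5 times), 15.2% of polymerase peaks held antibody 1 and 9.44% of antibody 1 peaks lay beside. Limiting both lists to 200 bp or wider gave 71.2% (24.7 times), 13.8% and 9.50%. Requiring 50% coverage of the peak gave 54.5% (27.6 times) and 8.05%, and requiring its midpoint 54.5% (26.7 times) and 9.85%; stricter overlap lowers shares by construction. Requiring 50% coverage between the control lists moved the ratio to 19.6. With polymerase peaks of either control, 66.9% overlapped, 9.58% lay beside and 10.6% lay over 50 kb away. Moves of 10 kb and 100 kb gave ratios of 14.0 and 23.9. A gap of up to 500 bp or 2 kb in place of 1 kb gave 8.73% and 12.4% beside. The central share was 65.0% in polymerase peaks of 200 bp or wider, 56.8% at 1 kb or wider and 68.3% where there was 1 antibody 1 midpoint.

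Whole lists with different controls compare with the 55.2% (16.6 times) of the whole IgG lists. Antibody 1 against IgG with the polymerase against input gave a higher share, 57.8%, at a lower ratio, 12.1. Antibody 1 against input with the polymerase against IgG gave a lower share, 19.1% (6.87 times), with 6.33% beside, and outside the dense input bins 33.5% (13.1 times), with 8.86% beside. The cause of these differences was not tested. Leaving out the dense bins changed no other share beyond its interval. No paired analysis was possible because each antibody has 1 library, and for the same reason no library could be left out. Without scores a stricter threshold could not be set, and the width limit stood in for it. The read support of the narrowest peaks is unknown.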
